A study of Mus musculus with 2 samples.

Results

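The 8 genes described here govern how islet cells take up glucose, trap it as glucose 6-phosphate and direct its carbon: Slc2a1, Slc2a2, Hk1, Hk2, G6pc2, Fbp1, Pfkfb2 and Pdk4. They were chosen by symbol, 8 of the 31053 genes in the count tables, by a rule that uses no measured value, although earlier results of these data were known when they were proposed. Islets of 2-week-old mice were dispersed and sequenced cell by cell on the 10x Genomics platform, with 1 library from WT mice and 1 from mice homozygous for loss of Npc1 (labelled Npc1KO, written Npc1-/- here). Each library was made from the pooled islets of 3 female mice. The Npc1-/- mice were on a C57BL/6J background, carried the mutant allele in every tissue and came from heterozygous matings, with WT littermates as controls. With 1 pool per genotype, differences between mice, between libraries and between genotypes cannot be told apart, so no test between genotypes was made, and every interval below covers counting error only.

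Glucose enters cells through facilitative transporters of the Slc2a family and is phosphorylated by a hexokinase. In β cells the high-affinity hexokinases are kept low, so that the rate of glucose use follows the blood level. Glucose-6-phosphatase and fructose-1,6-bisphosphatase run the opposite, gluconeogenic reactions, the enzyme encoded by Pfkfb2 sets the level of the glycolytic activator fructose 2,6-bisphosphate, and pyruvate dehydrogenase kinase 4 limits the entry of pyruvate into the citric acid cycle.

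Of 16215 barcodes, 8897 were kept, 4628 WT and 4269 Npc1-/-, with a median of 18905 and 21381 UMIs (unique molecular identifiers, each standing for 1 captured transcript) per cell. Kept cells were sorted by their leading hormone or by stromal markers into 7 classes holding 8257 cells: 1833 WT and 1826 Npc1-/- β cells, 1048 and 857 α, 189 and 141 δ, 411 and 442 PP (led by Ppy plus Pyy), 442 and 447 endothelial, 233 and 253 stellate, and 65 and 70 mesenchymal cells. Every class had all markers of its own list above 0. This is no check of identity, because the classes were set by these hormones and marker lists. All 7 β markers were also above 0 in every class. Npc1 itself had 790 UMIs in the kept WT cells and 391 in the kept Npc1-/- cells, which is 8.40 and 4.14 CPM (UMIs of a gene per 1000000 UMIs of the same cells). Npc1 transcripts were thus fewer but still present in the library labelled Npc1KO, and 3′ tags do not show whether the altered part of the gene is in them. The libraries shared 12 barcodes, of which 3 were among the kept cells, and barcodes with lymphocyte markers numbered 203 in WT and 1 in Npc1-/-. UMIs were summed per class and library and divided by the class total to give CPM. These are 3′ tag counts that are not divided by length, so levels are compared between classes and libraries, never between genes. Hormone transcripts fill part of each class total. Insulin transcripts were 51.9% of β UMIs in WT and 49.3% in Npc1-/-, against 1.59% and 0.875% of endothelial UMIs. Folds between classes given below include this difference in totals, and they were not recomputed without hormone genes.

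Each of the 8 genes had a promoter window in the RefSeq-derived table for the build GRCm38.p6. The 250 bases before the annotated start are shown for the 2 genes that were highest in β cells by more than 5-fold over the next class, Slc2a2 and G6pc2, and for the 2 that were highest in α cells, Fbp1 and Pdk4, because these pairs carry the main contrast between the endocrine classes. Capitals mark a match to CATCTG or its reverse complement CAGATG, the E-box form bound by islet basic helix-loop-helix factors. G6pc2 has 2 annotated starts, and that of its protein-coding transcripts was used. The window of the other start, chr2:69210823-69211072, is not shown. It holds 0 matches to this E-box form and has 50% GC.
Slc2a2, chr3:28697653-28697902, plus strand: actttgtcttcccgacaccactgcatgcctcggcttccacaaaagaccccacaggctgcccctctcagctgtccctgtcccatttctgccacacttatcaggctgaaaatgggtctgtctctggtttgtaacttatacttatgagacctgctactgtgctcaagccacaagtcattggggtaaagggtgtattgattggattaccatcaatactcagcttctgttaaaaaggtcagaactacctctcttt
G6pc2, chr2:69219699-69219948, plus strand: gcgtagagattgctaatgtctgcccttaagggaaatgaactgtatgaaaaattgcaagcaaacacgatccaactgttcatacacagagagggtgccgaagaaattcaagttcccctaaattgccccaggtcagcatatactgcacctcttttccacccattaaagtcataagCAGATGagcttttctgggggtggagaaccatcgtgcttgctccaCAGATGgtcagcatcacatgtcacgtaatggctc
Fbp1, chr13:62888283-62888532, minus strand: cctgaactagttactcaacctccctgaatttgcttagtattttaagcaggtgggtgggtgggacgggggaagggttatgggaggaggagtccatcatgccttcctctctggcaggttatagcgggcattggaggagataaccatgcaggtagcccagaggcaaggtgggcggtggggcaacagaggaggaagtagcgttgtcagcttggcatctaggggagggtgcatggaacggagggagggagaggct
Pdk4, chr6:5496279-5496528, minus strand: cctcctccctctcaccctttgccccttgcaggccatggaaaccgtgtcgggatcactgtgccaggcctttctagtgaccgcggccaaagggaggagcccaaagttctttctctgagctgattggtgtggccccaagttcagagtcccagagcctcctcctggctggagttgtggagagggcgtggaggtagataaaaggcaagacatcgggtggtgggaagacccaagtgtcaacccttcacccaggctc
The G6pc2 window shown holds CAGATG at 78 and at 34 bases before the start. Of all 32851 promoter windows of this length 14.4% hold at least 1 match on either strand. A TATA box, searched as TATAAA on both strands, is in none of the 4 windows and in 12.4% of all. The same holds for the HNF1 core, searched as GTTAAT, which 6.43% of all windows hold. The FOXA core, searched as TGTTTAC, is likewise in none of the 4 and in 3.17% of all. GC content was 47.2% for Slc2a2 and 46.0% for G6pc2, and 56.4% for Fbp1 and 58.8% for Pdk4, beside a median of 52.4% over all windows. The β pair lies below that median and the α pair above it, which describes 4 sequences and no more.

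**Figure D1:**
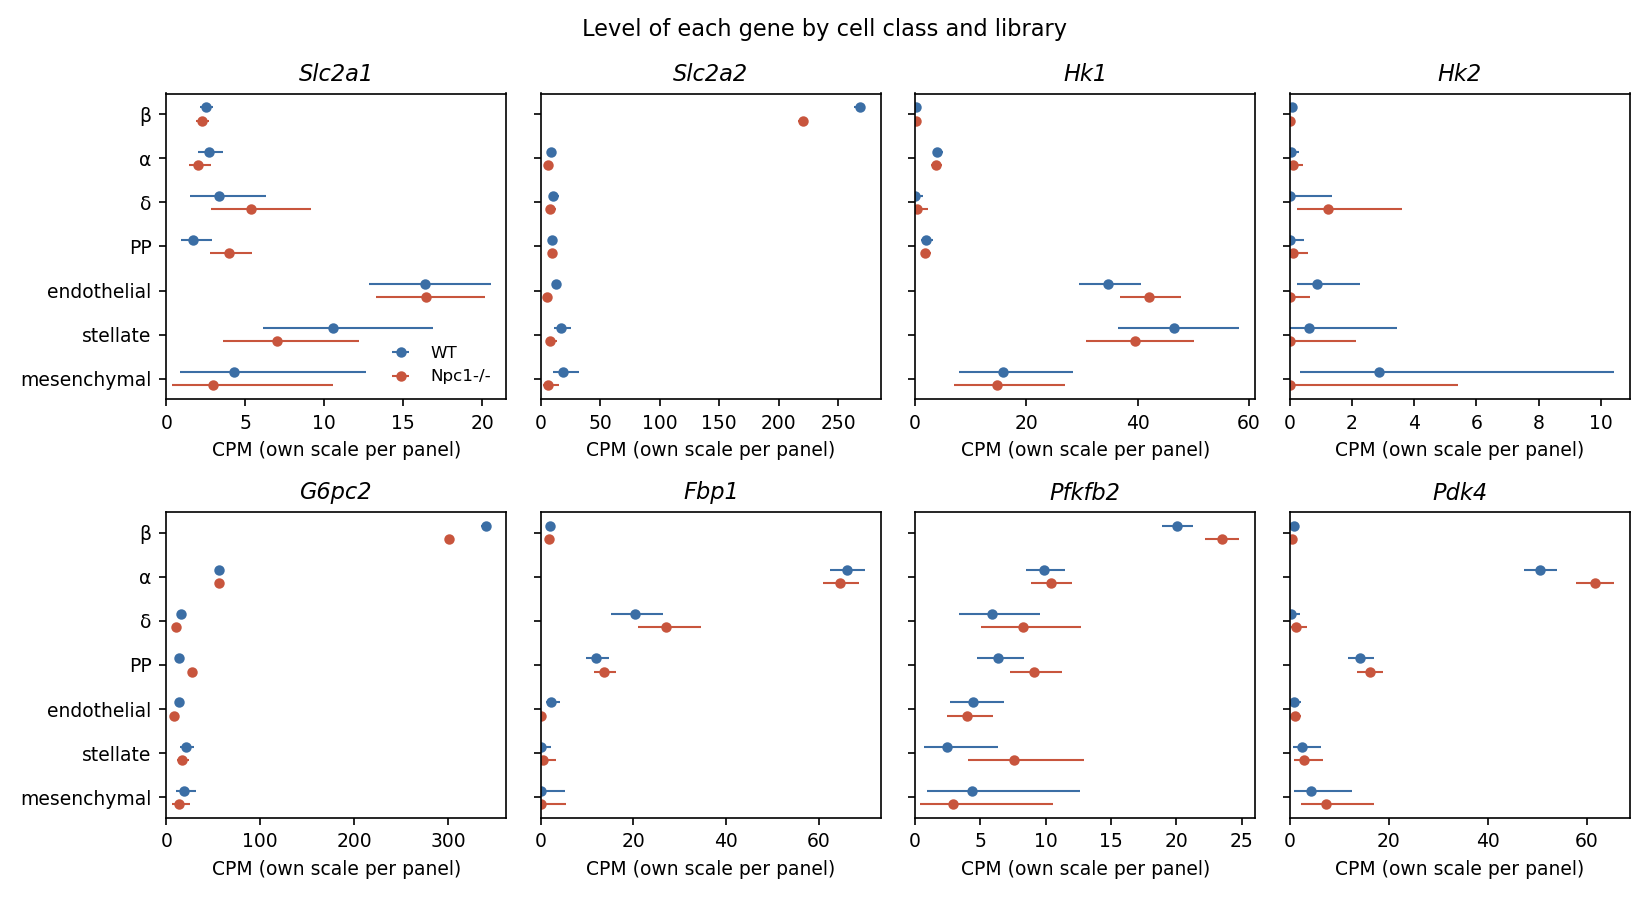
Level in CPM (x axis, own scale per panel) of each gene in the 7 cell classes (y axis) for the WT library (blue) and the Npc1-/- library (red); points are class sums and bars exact Poisson intervals for counting error. Slc2a2, G6pc2 and Pfkfb2 are highest in β cells, Fbp1 and Pdk4 in α cells, Slc2a1 in endothelial cells and Hk1 in stellate and endothelial cells, in both libraries.

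The transporters divided by cell type. Slc2a1, which encodes GLUT1, the transporter of vascular and many other cells, lies at chr4:119108711-119137983 and was highest in endothelial cells. Its endothelial level was 16.4 CPM in WT (interval 12.8 to 20.5) and 16.5 CPM in Npc1-/- (13.3 to 20.2), the same within counting error. Stellate cells followed with 10.5 and 6.99 CPM, apart from endothelial cells by the range over the libraries, although within WT the endothelial to stellate ratio of 1.55 had an interval (0.907 to 2.81) that reached 1. The β cells had 2.52 CPM on 138 UMIs (WT) and 2.29 CPM on 124 UMIs (Npc1-/-), 6.49-fold and 7.19-fold below the endothelial level of the same library. The δ, mesenchymal, PP, β and α classes overlapped in order, each with its neighbour.

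Slc2a2 encodes GLUT2, the main transporter of mouse β cells, and lies at chr3:28697903-28731359. It had 14688 UMIs in WT β cells and 11920 in Npc1-/- β cells, or 268 CPM (264 to 272) and 220 CPM (216 to 224). Every other class lay between 5.54 and 18.7 CPM in either library, and these 6 classes overlapped one another in order. The β level was 31.2-fold the α level in WT and 35.7-fold in Npc1-/-. Thinned to 5000 UMIs per cell, 68.0% of WT β cells (65.8% to 70.1%) and 60.7% of Npc1-/- β cells (58.4% to 63.0%) held at least 1 Slc2a2 UMI, against 4.33% and 2.81% of α cells. The median β cell carried 7 Slc2a2 UMIs in WT, with quartiles of 4 and 11, and 6 in Npc1-/-, with quartiles of 3 and 9.

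The low Slc2a2 level outside β cells was set beside free RNA, the β-cell transcripts that reach other droplets during dispersion. Insulin transcripts in α cells were 2.07% of their β-cell level in WT and 1.49% in Npc1-/-, and Slc2a2 carried along at that rate would give 5.55 and 3.29 CPM. Slc2a2 was measured in α cells at 8.60 and 6.17 CPM, and over the 6 classes and both libraries the measured level was 1.12 to 2.37 times the carried one. The carried level lay within the counting interval in 4 of these 12 sums and below it in the others, so Slc2a2 outside β cells was low and mostly somewhat above this estimate of background.

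**Figure D2:**
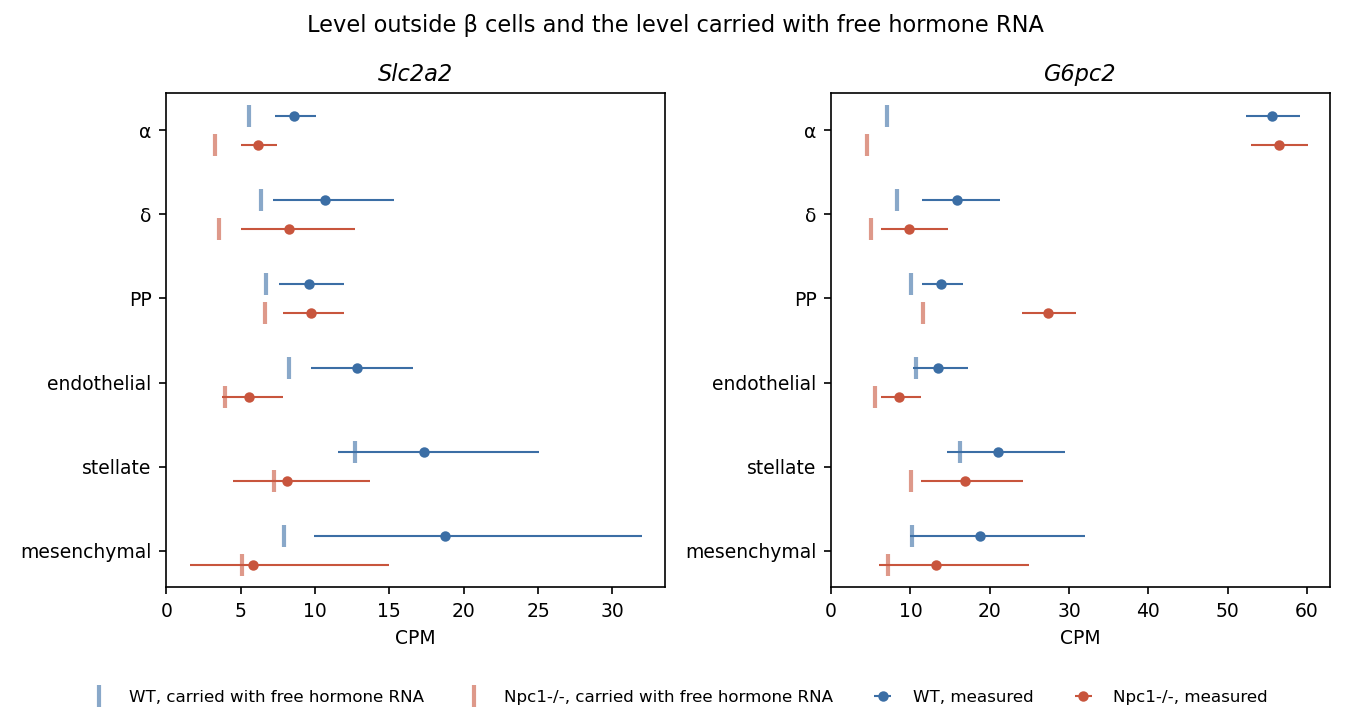
Measured level of Slc2a2 and G6pc2 in CPM (x axis) in the 6 classes other than β cells (y axis), as points with exact Poisson intervals, and the level carried with free insulin and Gcg RNA, as vertical ticks, for WT (blue) and Npc1-/- (red). Slc2a2 lies at 1.12 to 2.37 times its ticks over the 6 classes. G6pc2 in α cells, at 55.7 and 56.4 CPM, lies far to the right of its ticks.

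Of the high-affinity hexokinases, Hk1 showed the reverse distribution. Hk1, the widely used housekeeping hexokinase (chr10:62268855-62379908), reached 46.5 CPM in WT stellate cells (36.6 to 58.3) and 39.6 CPM in Npc1-/- stellate cells (30.7 to 50.2). Endothelial cells had 34.7 and 42.0 CPM and overlapped the stellate range, and mesenchymal cells had 15.8 and 14.6 CPM. The endocrine classes ranked far lower, with α cells at 74 and 64 UMIs (3.73 CPM in Npc1-/-) and PP cells at 1.96 and 1.82 CPM. In β cells only 8 Hk1 UMIs were found among 54792591 in WT and 10 among 54150278 in Npc1-/-, or 0.146 and 0.185 CPM, so that the stellate level was 318-fold (154 to 764) and 214-fold (110 to 467) the β level. Hk1 was thus nearly undetected in the class with the largest total. The δ cells, with 0 and 1 UMIs, could not be ranked against β cells. Hk1 shares its position with Hk1os on the other strand.

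Hk2, the insulin-responsive hexokinase of muscle and fat (chr6:82725025-82774454), was at or near 0 in every class. WT β cells held 4 UMIs and Npc1-/- β cells 0, a count whose interval allows up to 0.0681 CPM. Across all 7 classes and both libraries no sum held more than 4 Hk2 UMIs, so its order by class is not given.

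G6pc2 encodes the islet glucose-6-phosphatase catalytic subunit, which returns glucose 6-phosphate to glucose (chr2:69211073-69227841). It was highest in β cells, where the WT level was 341 CPM (336 to 345) and the Npc1-/- level 301 CPM (297 to 306). The α cells came next with 55.7 CPM (52.3 to 59.2) and 56.4 CPM (52.9 to 60.1), 6.12-fold and 5.34-fold below the β cells of the same library. Free RNA would carry 7.05 and 4.51 CPM of G6pc2 into α cells, so the α level stood 7.89 and 12.5 times above the carried level. In the PP, stellate, mesenchymal, δ and endothelial classes G6pc2 lay between 8.58 and 27.4 CPM, with ranges that overlapped from each class to the next. The measured level in these classes was 1.26 to 2.37 times the carried one. The carried level lay within the counting interval in WT stellate, WT endothelial and both mesenchymal sums, and below it in the others. Thinned to 5000 UMIs, a G6pc2 UMI was found in 77.5% of WT β cells and 73.1% of Npc1-/- β cells, and in 21.2% and 21.5% of α cells.

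**Figure D3:**
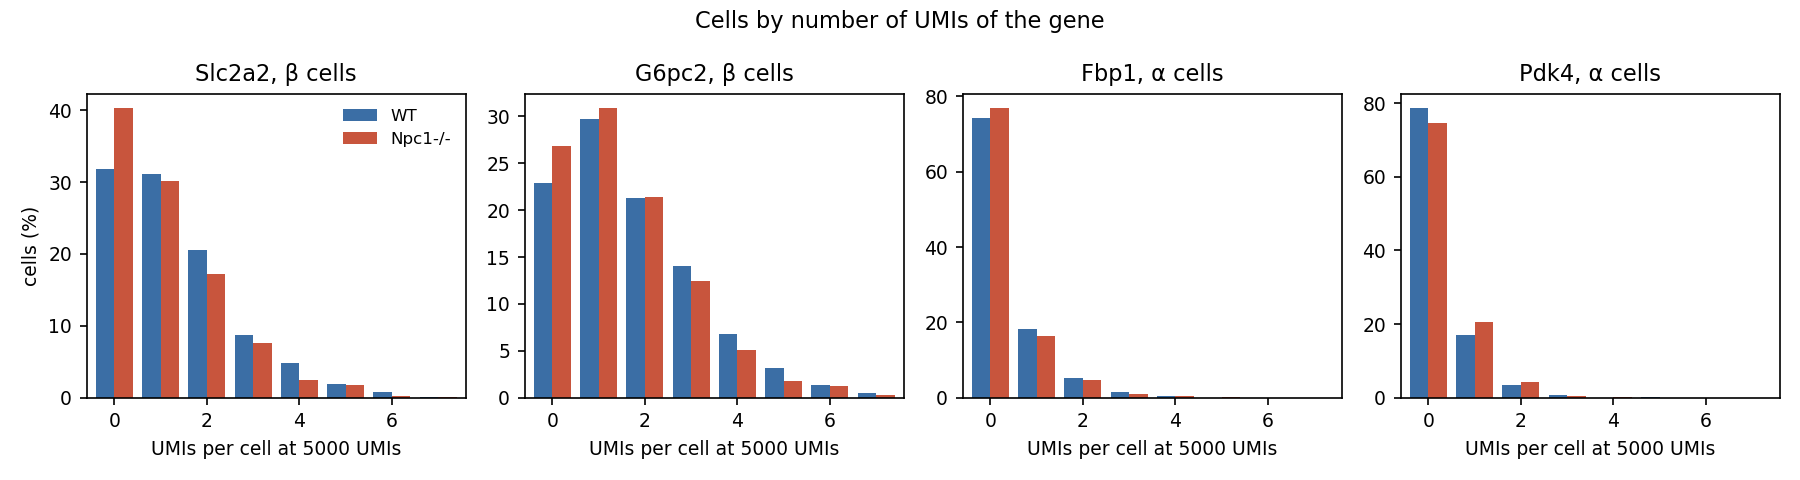
Share of cells (y axis, %) by the number of UMIs of a gene after thinning each cell to 5000 UMIs (x axis, drawn up to 7), for Slc2a2 and G6pc2 in β cells and Fbp1 and Pdk4 in α cells, WT in blue and Npc1-/- in red. The bar at 0 for Slc2a2 is taller in Npc1-/-, where 60.7% of β cells held a UMI against 68.0% in WT, and the Fbp1 and Pdk4 bars fall away after 1 to 2 UMIs.

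Fbp1, the liver-type fructose-1,6-bisphosphatase of gluconeogenesis (chr13:62864753-62888282), was highest in α cells. It reached 66.1 CPM in WT (62.5 to 70.0) and 64.7 CPM in Npc1-/- (61.0 to 68.6). The δ cells followed with 20.3 and 27.1 CPM and the PP cells with 98 and 128 UMIs (13.7 CPM in Npc1-/-), and these 3 classes did not overlap. In PP cells with insulin, Gcg and Sst each under 2% of UMIs, Fbp1 was lower. It had 23 UMIs (4.67 CPM) there in WT and 20 UMIs (4.42 CPM) in Npc1-/-. In β cells Fbp1 had 108 and 103 UMIs, or 1.97 and 1.90 CPM, 33.6-fold and 34.0-fold below α cells. Endothelial cells held 10 Fbp1 UMIs in WT and 0 in Npc1-/-, a count of 0 whose interval allows up to 0.660 CPM. Among α cells, the median cell carried 1 Fbp1 UMI in each library, the upper quartile was 2, and the highest cell carried 34 in WT and 17 in Npc1-/-.

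Pfkfb2, a 6-phosphofructo-2-kinase/fructose-2,6-bisphosphatase (chr1:130689182-130729253), was highest in β cells but with a smaller lead than Slc2a2 or G6pc2. Its β level was 20.1 CPM in WT (18.9 to 21.3) and 23.5 CPM in Npc1-/- (22.2 to 24.8). The α cells had 9.90 and 10.4 CPM, so β cells exceeded them by 2.03-fold and 2.26-fold. The PP, δ, stellate, endothelial and mesenchymal classes overlapped one another in order, from 2.48 to 9.09 CPM. The locus overlaps Yod1 on the other strand and Gm29427 on the same strand, so reads could be shared with Gm29427.

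Pdk4, the kinase that holds pyruvate dehydrogenase inactive during fasting (chr6:5483351-5496309), paralleled Fbp1 in its preference for α over β cells but not in its second class. Its α level was 50.6 CPM in WT (47.4 to 53.9) and 61.5 CPM in Npc1-/- (57.9 to 65.3). PP cells followed with 14.2 and 16.1 CPM, and mesenchymal and stellate cells had 2.48 to 7.32 CPM on at most 5 UMIs each. In β cells the level was 0.821 CPM in WT (0.599 to 1.10) and 0.572 CPM in Npc1-/- (0.389 to 0.813). Free α-cell RNA would carry 0.541 and 0.509 CPM, below the counting interval in WT and within it in Npc1-/-. In δ cells, where Fbp1 was second highest, Pdk4 had 1 and 3 UMIs.

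The classes were then compared between genotypes. In each class the log2 CPM ratio of Npc1-/- over WT was taken relative to the median gene, and a gene was called higher or lower when it was past 0.32 on this log2 scale with a counting interval that left out 0, among genes of at least 5 CPM in either library and 20 UMIs over both. In β cells the median gene itself lay at 0.12. Of the 8 genes 3 passed the limit on low values; 1 was called lower and 0 higher, where 6.29% and 7.46% of the 8858 genes in β cells were called. A call over counts describes these 2 libraries, not the genotypes.

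**Figure D4:**
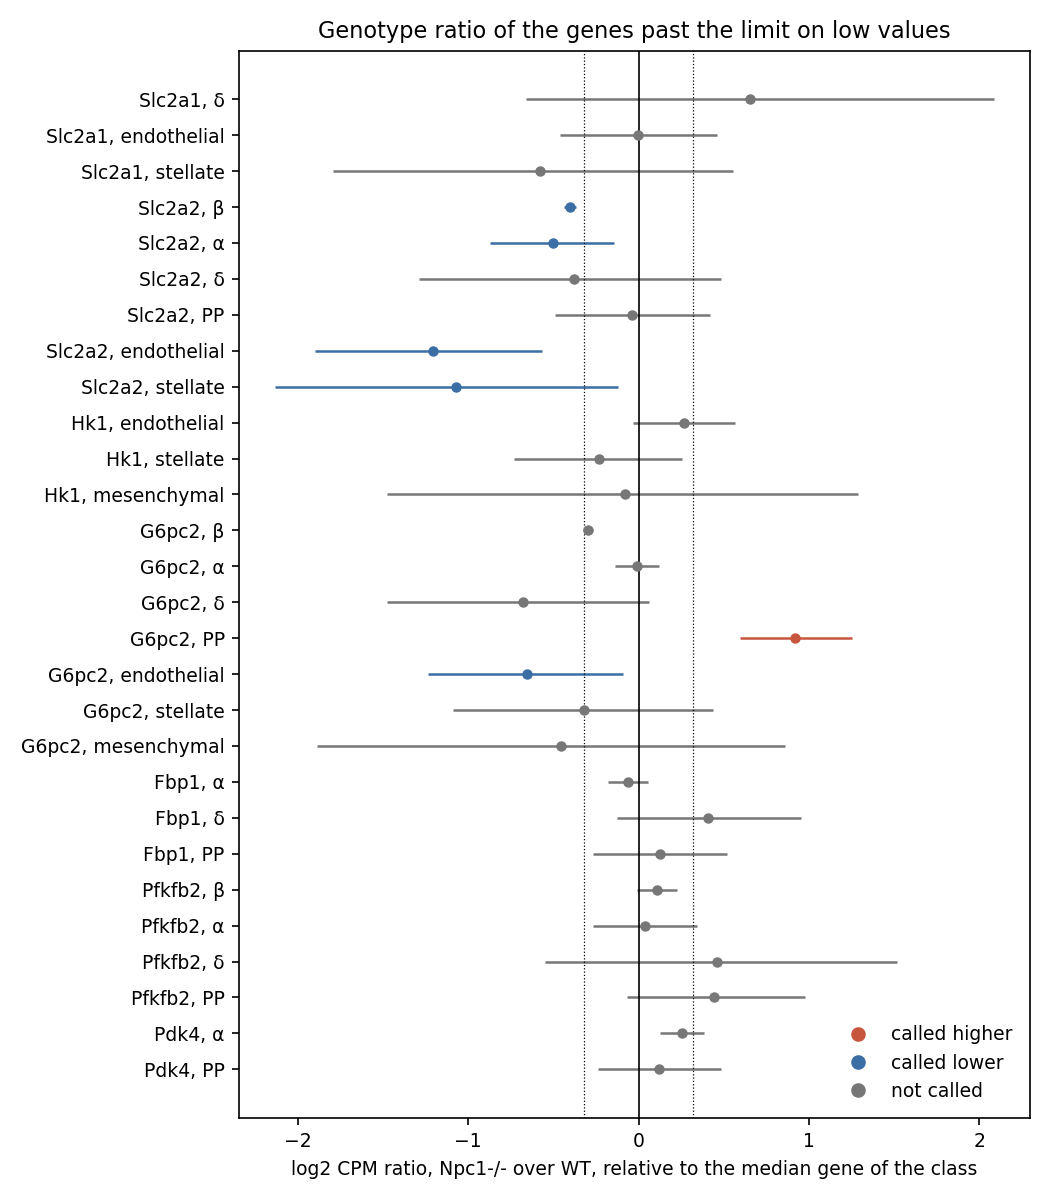
Log2 CPM ratio of Npc1-/- over WT relative to the median gene of the class (x axis) for each gene and class past the limit on low values (y axis), with counting intervals; dotted lines mark the limit of 0.32 either way, and colour marks a call. Slc2a2 in β cells sits at -0.40 with a narrow interval, G6pc2 in β cells at -0.30 just inside it, and G6pc2 in PP cells at 0.92.

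The gene called in β cells was Slc2a2, at -0.40 (-0.44 to -0.37), a ratio of 0.756 relative to the median gene. Its ratio without the median-gene adjustment was -0.28, which is inside the limit of 0.32. G6pc2 was lower by a smaller margin, at -0.30 (-0.33 to -0.27), and was not called. Pfkfb2 lay at 0.11 (-0.01 to 0.23), with an interval that included 0. Slc2a2 and G6pc2 thus stood below the median gene, and Pfkfb2 within counting error of it. Over all β cells Slc2a1, Fbp1 and Pdk4 were below the limit on low values and had intervals that included 0.

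The β cells of the Npc1-/- library held more Ppy and Pyy transcripts, with a median share of 0.783% of UMIs against 0.348% in WT. Slc2a2 and G6pc2 were both lower where this share was higher. Cells were split into tertiles of the share pooled over the libraries, which gave 734 WT and 486 Npc1-/- cells in the lowest and 446 and 774 in the highest. Slc2a2 went from 300.4 CPM in the lowest to 199 CPM in the highest tertile of the WT library, a ratio of 0.662 (0.632 to 0.693). The Npc1-/- library went from 265 to 178 CPM, a ratio of 0.672 (0.642 to 0.702). G6pc2 behaved alike, with ratios of 0.658 and 0.633. For Pfkfb2 the ratios were 0.742 and 0.773. Fbp1 ran the other way, from 0.302 to 5.57 CPM in WT and from 0.454 to 3.07 CPM in Npc1-/-. Its ratios were 18.5 (8.51 to 47.7) and 6.76 (3.11 to 17.5). Pdk4 also rose, from 0.388 CPM (9 UMIs) to 1.45 CPM in WT and from 0.0649 CPM (1 UMI) to 0.931 CPM in Npc1-/-.

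Within tertiles the genotype ratios of Slc2a2 and G6pc2 were smaller. Slc2a2 lay at -0.25, -0.33 and -0.26 in the lowest, middle and highest tertile, below the median gene in 3 of 3, and was called in the middle one. G6pc2 lay at -0.12, -0.18 and -0.21 and was called in none. Fbp1 passed the limit in the highest tertile only, with 69 UMIs in WT and 66 in Npc1-/-. There it was called lower at -0.96 (-1.47 to -0.45). Of all genes tested, 10.7%, 6.69% and 6.38% were called lower in the 3 tertiles in that order, and 10.6%, 9.01% and 8.74% higher. β cells in which Gcg, Sst and Ppy plus Pyy all stayed under 2% of UMIs gave -0.33 for Slc2a2 and -0.21 for G6pc2. In those cells Fbp1 had 25 UMIs (0.536 CPM) in WT and 32 UMIs (0.797 CPM) in Npc1-/-. That was under the limit on low values, with a ratio of 0.47 (-0.32 to 1.29). Tertiles of total UMIs gave -0.46, -0.41 and -0.35 for Slc2a2 and -0.30, -0.34 and -0.24 for G6pc2. The part of the Ppy and Pyy share in the pooled difference was not tested.

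**Figure D5:**
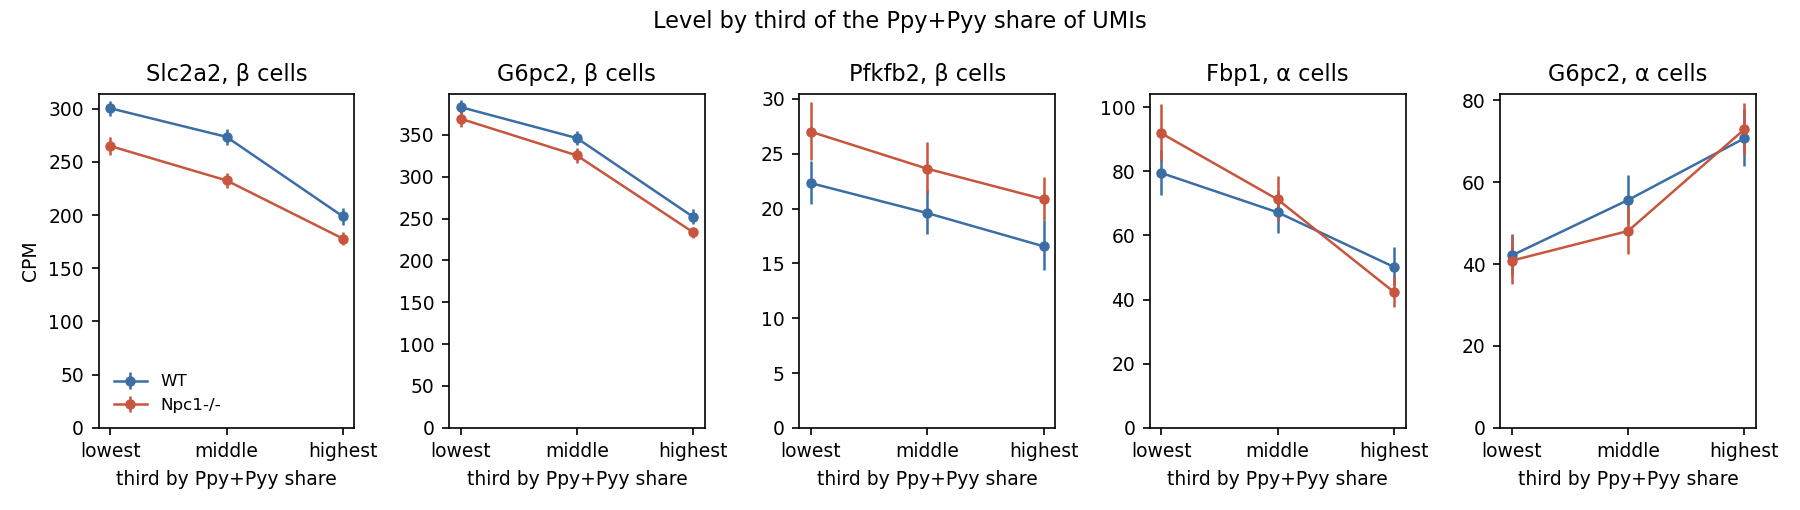
Level in CPM (y axis, from 0) of Slc2a2, G6pc2 and Pfkfb2 in β cells and of Fbp1 and G6pc2 in α cells by tertile of the Ppy plus Pyy share of UMIs (x axis), WT in blue and Npc1-/- in red, with exact Poisson intervals. All 3 genes are lower in the highest than in the lowest tertile of β cells in both libraries, and in α cells Fbp1 steps down while G6pc2 steps up.

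In α cells 5 of the 8 genes passed the limit, with 1 called lower and 0 higher, where 3.97% and 3.23% of 9897 genes were. Fbp1 was within counting error of the median gene, at -0.06 (-0.18 to 0.06), and so was G6pc2, at -0.01 (-0.14 to 0.12). Pdk4 was higher at 0.25 (0.13 to 0.38), short of the fold, and Pfkfb2 lay at 0.04 (-0.27 to 0.34). The gene called lower was Slc2a2, at -0.50 (-0.88 to -0.14), in cells whose insulin transcripts were also lower, 1.07% of UMIs in WT and 0.737% in Npc1-/-. The part of these transcripts in that ratio was not tested. Fbp1 in α cells was lower where the Ppy plus Pyy share was higher in both libraries, from 79.5 to 50.2 CPM in WT and from 91.8 to 42.4 CPM in Npc1-/-. G6pc2 ran the opposite way, from 42.1 to 70.7 CPM and from 40.8 to 72.9 CPM, which reverses its direction in β cells. Pdk4 was called higher in the highest tertile only, at 0.46 (0.22 to 0.71), and lay at 0.24 and 0.20 in the lowest and middle ones. Of all genes 4.34%, 5.13% and 3.44% were called higher in the lowest, middle and highest tertile of α cells, and 4.54%, 4.75% and 4.36% lower. The difference between tertiles was not tested.

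In PP cells 5 of the 8 genes passed and 1 was called higher and 0 lower, where 5.15% and 5.39% of 9971 genes were. G6pc2 had 113 UMIs in WT and 256 in Npc1-/- PP cells, or 13.9 and 27.4 CPM. This put it at 0.92 relative to the median gene, with a lower bound of 0.59. The free RNA estimate gave 10.1 CPM of G6pc2 in WT and 11.5 CPM in Npc1-/-. It counts all insulin and Gcg transcripts of PP cells as free RNA, and their Gcg stood at 3.62% and 5.16% of the α level. Hormone made by the PP cells themselves would be included. The part of free RNA in this ratio was not tested. The median Ppy plus Pyy share of PP cells was 34.89% of UMIs in WT and 25.02% in Npc1-/-. The class also held other hormones, with Sst at 31230 and 35333 CPM, Gcg at 11087 CPM (WT) and 15458 CPM (Npc1-/-) and Iapp at 11367 and 18893 CPM. Among the 228 WT and 199 Npc1-/- PP cells in which insulin, Gcg and Sst each stayed under 2% of UMIs, G6pc2 was 11.4 and 13.9 CPM, a ratio of 0.24 (-0.30 to 0.79) that was no longer called. Slc2a1 had 14 and 37 UMIs in PP cells, 1.72 and 3.96 CPM, under the limit on low values, and 7 and 20 UMIs in the PP cells without other hormones. Fbp1 and Pdk4 lay at 0.12 each, with intervals that included 0.

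In δ cells 5 of the 8 genes passed and 0 were called, where 4.15% of 10331 genes were called lower and 3.75% higher. Among these 5 the widest interval was that of Slc2a1, 0.66 (-0.66 to 2.08) on 9 and 13 UMIs, so a difference of that size was not detectable at this depth. In endothelial cells Slc2a1 lay at -0.00 (-0.46 to 0.46) and Hk1 at 0.26 (-0.03 to 0.57), and neither was called. The 2 calls of the 4 genes that passed were both lower, beside 5.81% of 10207 genes lower and 4.03% higher: Slc2a2 at -1.21 and G6pc2 at -0.66. Insulin transcripts in the endothelial class were 3.06% of the β level in WT and 1.78% in Npc1-/-, and the levels carried with free RNA were 8.24 and 3.92 CPM for Slc2a2 and 10.7 and 5.50 CPM for G6pc2. The part of free RNA in these ratios was not tested. The G6pc2 call was made in 11 of 12 alternatives, none of which removed free RNA and some of which left the endothelial cells unchanged. In stellate cells 4 genes passed, with Hk1 at -0.23 (-0.73 to 0.26) and Slc2a1 at -0.58 (-1.80 to 0.55), and the 1 call was Slc2a2 at -1.07 on 28 and 14 UMIs, beside 4.6% of 9778 genes lower and 3.94% higher. Stellate insulin transcripts were 4.72% of the β level in WT and 3.29% in Npc1-/-, and the carried Slc2a2 levels of 12.7 and 7.26 CPM lay within the counting intervals of the measured 17.4 and 8.15 CPM in both libraries. That call was made in 10 of 11 alternatives, some of which left the stellate cells unchanged. In mesenchymal cells Hk1 and G6pc2 passed and 0 were called, beside 5.53% lower and 5.58% higher of 7452 genes.

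The other genes of the pathway were taken from 7 lists with 60 genes in all, none of them among the 8. In β cells 32 of the 60 passed the limit; 4 were called higher and 2 lower, where 7.46% and 6.29% of all genes in β cells were, and the median relative ratio was -0.09, beside 0 by construction for all genes. Of the 12 further glucose transporters 2 passed the limit, as did 2 of the 5 hexokinases and regulators, and 0 of these were called. Slc2a5, a fructose transporter, had 182 CPM in the WT sum and 187 CPM in the other. Of 13 genes of pyruvate entry 10 passed and 3 were called higher: Pdk1 at 0.76 (0.58 to 0.94), Pdk2 at 0.41 (0.19 to 0.63) and the phosphatase Pdp2 at 0.50 (0.30 to 0.70). Pdk1 and Pdk2 inhibit pyruvate dehydrogenase as Pdk4 does, and Pdp2 reverses that inhibition. Pdhb, a subunit of the dehydrogenase itself, was called lower at -0.32 (-0.40 to -0.25). Of 19 glycolytic genes 13 passed, with Aldoc, a fructose-bisphosphate aldolase, called higher at 0.71 (0.54 to 0.89) and Pgk1, a phosphoglycerate kinase, called lower at -0.55 (-0.63 to -0.48).

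Of the 4 further genes listed for gluconeogenesis 2 passed the limit in β cells, and 0 of these were called. Pck1, the cytosolic phosphoenolpyruvate carboxykinase, had 1 UMI in WT and 2 in Npc1-/-, and G6pc, the liver glucose-6-phosphatase, had 0 in both. Pcx, pyruvate carboxylase, was measured at 31.4 and 37.3 CPM, a ratio of 0.13 (0.04 to 0.22). Ldha, a lactate dehydrogenase subunit, had 109 UMIs in WT and 96 in Npc1-/- β cells, or 1.99 and 1.77 CPM, far below its endothelial level of 293 and 300 CPM. In this it resembled Hk1, which was also lower in β than in endothelial cells. In α cells 33 of the 60 passed and 0 were called in either direction, beside 3.97% lower and 3.23% higher of all genes in that class. In PP cells 32 passed, of which 5 were called higher and 1 lower, beside 5.15% and 5.39% of all genes in that class. These counts were not repeated without the PP cells holding other hormones.

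The genes whose pattern over the 14 class and library sums was most like each member were found by Pearson correlation of log2(CPM + 1) among 9345 genes of at least 20 CPM in 1 sum. The sums share libraries and free RNA, so these values are descriptions. Slc2a2 was closest to Ins2 (r = 0.984) and Ucn3 (0.982), and G6pc2 to Ero1lb (0.979) and Insrr (0.914). Fbp1 was closest to Sfrp5 (0.973) and Nefm (0.966), and Pdk4 to the α-cell gene Irx1 (0.953) and Apod (0.935). Hk1 was closest to Tmsb4x (0.990) and Id3 (0.980), Slc2a1 to Ssu72 (0.958) and Zfp715 (0.957), and Pfkfb2 to Ky (0.921) and Arhgdig (0.916). Hk2 had too few UMIs for its neighbours, Srsf6 and Coch, to be read.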

How the data were processed

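Droplet libraries were made from dispersed islets, 1 per genotype. The values deposited by the authors are whole UMI counts, not normalized, and the submitters' processing notes name Cell Ranger 3.1.0 and the build mm10, and the gene annotation is not given in the sources used here. Barcodes were kept with over 1000 genes, under 50000 UMIs, under 10% mitochondrial and at most 0.1% haemoglobin UMIs. A class was the leading hormone at 10% of UMIs or more, or else the marker list of highest mean score with at least 3 detected markers and a lead of 0.5. Doublets were not removed in the main setting. Counts were summed per class and library with numpy 2.4.6, scipy 1.17.1 and pandas 2.3.3, 0.5 counts were added for log ratios, and intervals are at 95%: exact Poisson for CPM, conditional binomial for ratios and Clopper-Pearson for shares. The code was tested on simulated data. The level carried with free RNA is the gene's β level times the insulin CPM of a class over that of β cells, plus the same for Gcg and α cells. Apart from insulin in β cells and Gcg in α cells, hormone made by the class itself is thereby counted as free RNA. Positions are from GENCODE vM21 (GRCm38). Named genes are the 8 members, list genes past the fold in β cells, Pck1, Pcx, Ldha, Npc1 and the closest patterns. Slc2a5, G6pc, Fbp2 and Pfkfb3 were added after their values were seen. Some genes of the lists are not reported here by name. Members and lists were chosen with earlier results of these data known. Alternatives covered cell filters, Scrublet doublet scores (scanpy 1.11.5), class limits, scaling (TMM factors from edgeR 4.0.16), weighting and low-value limits.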

Additional observations from a re-analysis of the deposited data

Results flagged for a closer look

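Hk2, nearly absent from the 7 classes, was found in kept barcodes with macrophage markers, which the comparisons above do not use. There it had 18 UMIs in 48 WT barcodes and 17 UMIs in 33 Npc1-/- barcodes, or 31.3 CPM (18.6 to 49.5) and 30.1 CPM (17.5 to 48.2), above the highest of the 7 classes in the same library, 2.88 and 1.23 CPM.

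G6pc2 was called in opposite directions in 2 classes, at 0.92 in PP cells and -0.66 in endothelial cells relative to the median gene of each. The first was not called without the PP cells holding other hormones (0.24). The second was called in 11 of 12 alternatives, some of which left the endothelial cells unchanged. No alternative removed free RNA. In endothelial cells the G6pc2 level carried with free RNA was 10.7 CPM in WT and 5.50 CPM in Npc1-/-, beside 13.5 and 8.58 CPM measured. The part of free RNA in the endothelial ratio was not tested. The difference between the classes was not tested.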

How the results depend on the processing

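No paired analysis was possible because each genotype has 1 library, and for the same reason no replicate could be left out. Across 365 recomputed log2 ratios of single genes, 338 stayed within the counting interval of the reported value, 27 moved out of it and 0 called ratios changed sign. Of the other recomputed values, which are levels, shares of cells at other depths and counts of genes, 63 stayed and 50 moved. Slc2a2 in β cells moved to -0.28 as a plain CPM ratio, -0.35 with totals that exclude hormone genes, -0.25, -0.33 and -0.26 in the Ppy plus Pyy tertiles, -0.46 and -0.35 in the lowest and highest tertiles of total UMIs, and -0.33 without cells holding other hormones. G6pc2 moved to -0.18, -0.24, -0.12, -0.18 and -0.21 in the first 5 of these, to -0.34 and -0.24 in the middle and highest tertiles of total UMIs, and to -0.21 without cells holding other hormones. The number of members called lower in β cells became 2 under the stricter cell filter, with G6pc2 added, and 0 as a plain CPM ratio. Pathway genes called higher in β cells became 8 with no limit on low genes, and those called lower became 1 as a plain CPM ratio and 1 with TMM. The share of β cells with a Slc2a2 UMI was 46.2% in WT and 39.3% in Npc1-/- at 2500 UMIs and 96.0% and 93.2% unthinned. The class of highest level held for 8 of 8 genes under both other cell filters and with totals that exclude hormone genes, although for Hk2 it rests on 2 UMIs. G6pc2 was called higher in PP cells in 12 of 12 alternatives recomputed over the class, and not called without PP cells holding other hormones (0.24). The calls of G6pc2 in endothelial cells and Slc2a2 in stellate cells were made in 11 of 12 and 10 of 11 alternatives. That of Slc2a2 in α and in endothelial cells was made in 12 of 12. Leaving out second-hormone barcodes, or hormone-led barcodes with stromal markers, kept all 442 and 447 endothelial and 233 and 253 stellate cells. Those settings could not change the calls of these classes, and their values count among the 338. Without second-hormone barcodes PP cells numbered 411 and 441, against 411 and 442. For the mean over cells a call used the fold alone, without an interval. No alternative removed free RNA. The tertiles of α cells and the settings without other hormones were chosen after seeing the data. Depth limits the δ, stellate and mesenchymal classes most, where the interval of a count of 0 allows up to 1.36 to 5.40 CPM.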

Other observations

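In β cells 1 further pathway gene under the limit on low values is given as values only, chosen after they were seen. Pfkfb3, which makes fructose 2,6-bisphosphate as Pfkfb2 does, had 51 UMIs in WT and 194 in Npc1-/- β cells, or 0.931 and 3.58 CPM, which is 1.82 on the log2 scale relative to the median gene (1.37 to 2.30).

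In barcodes with Schwann cell markers, 32 in WT and 38 in Npc1-/-, Hk1 had 9 and 8 UMIs, or 37.8 CPM (17.3 to 71.8) and 29.6 CPM (12.8 to 58.4), beside 34.7 to 46.5 CPM in the stellate and endothelial classes. In the 203 WT barcodes with lymphocyte markers Slc2a1 stood at 19.0 CPM (11.8 to 29.1), with no comparable set of barcodes in the Npc1-/- library.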
